A study of Mus musculus with 8 samples.

Results

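The G1 cyclins and their kinases are the 8 genes that drive a cell out of G1: the D-type cyclins Ccnd1, Ccnd2 and Ccnd3, their partner kinases Cdk4 and Cdk6, the E-type cyclins Ccne1 and Ccne2, and their partner kinase Cdk2. The 8 genes were taken by symbol from the 19909 genes of the deposited tables, with earlier results of these data known. All 8 were present with an adjusted p in every contrast. Messenger RNA was measured by bulk sequencing of purified bone marrow haematopoietic stem cells (HSCs) of mice with the genotype Gfplc3/Gfplc3, isolated at steady state. All groups thus carried the GFP-LC3 reporter, a fusion of green fluorescent protein to LC3, an autophagosome protein that is degraded as autophagy proceeds.

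The first group was AThi (GFPlo), the 33% of HSCs with the lowest GFP signal from mice older than 24 months (n = 3 libraries). The second was ATlo (GFPhi), the 33% with the highest GFP signal from old mice (n = 3), paired with AThi by mouse per the labels. The third was HSCs of mice 8 to 12 weeks old, sequenced unfractionated (young, n = 2). Young HSCs were not gated on GFP, so age and gate cannot be told apart in the contrasts of an old fraction against young. Old HSCs between the GFP gates are in none of the groups. Each old group came from 3 mice, and the labels give no promoter for the reporter.

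In G1, cyclin D binds CDK4 or CDK6, and the active kinase phosphorylates the retinoblastoma (RB) family of pocket proteins. E2F transcription factors are then released and raise transcription of the E-type cyclins, whose partner CDK2 phosphorylates RB further and helps replication origins to fire. Most adult HSCs rest outside the cycle. In human HSCs the amount of CDK6 is known to set how fast a resting cell enters the cycle, and mouse embryos that lack all D-type cyclins fail in haematopoiesis.

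Promoter windows were searched for letters of a cell cycle element around annotated starts of the members. RefSeq windows of build GRCm38.p6, from 250 bases before to 50 bases after a start, were present for 5 of the 8 members, as 6 windows because Ccnd3 has more than 1 start. An E2F element was searched on both strands as TTTCCCGC, TTTCGCGC, TTTGCCGC or TTTGGCGC. Of all 32851 windows, 744 (2.26%) held at least 1 such match, and of the 6 member windows 1 did, that of Cdk2, at 140 bases before its start. The letters CACGTG, an E-box to which MYC and MAX are known to bind and which reads the same on both strands, were searched after the windows had been read. The Cdk4 window held 4 of them, starting 172, 118, 98 and 11 bases before the start, and 8 windows in all (0.0244%) held 4 or more. The Cdk6 window held 1, and 7.15% of all windows held at least 1. The windows of both kinases of cyclin D, of Cdk2 and of Ccne1, the cyclin with the largest difference between the old fractions, are given 5′ to 3′ on the strand of the gene. They are chr10:127063285-127063584 on the plus strand for Cdk4, chr5:3343643-3343942 on the plus strand for Cdk6, chr10:128705002-128705301 on the minus strand for Cdk2 and chr7:38107441-38107740 on the minus strand for Ccne1. Capitals mark CACGTG in Cdk4 and Cdk6 and the reverse complement of TTTCCCGC in Cdk2. The Cdk6 and Ccne1 windows, one of the Ccnd3 windows and, only just, the Cdk4 window lie around a start inside the gene as GENCODE bounds it. That start is downstream of the first base of the gene. The Ccne1 window held neither kind of match, and no match of one kind overlapped a match of the other.
Cdk4: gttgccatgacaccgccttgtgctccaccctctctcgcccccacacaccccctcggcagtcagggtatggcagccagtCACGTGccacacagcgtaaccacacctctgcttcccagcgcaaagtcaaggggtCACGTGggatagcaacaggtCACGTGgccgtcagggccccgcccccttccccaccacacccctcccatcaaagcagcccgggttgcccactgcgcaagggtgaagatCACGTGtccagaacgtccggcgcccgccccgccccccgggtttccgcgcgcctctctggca
Cdk6: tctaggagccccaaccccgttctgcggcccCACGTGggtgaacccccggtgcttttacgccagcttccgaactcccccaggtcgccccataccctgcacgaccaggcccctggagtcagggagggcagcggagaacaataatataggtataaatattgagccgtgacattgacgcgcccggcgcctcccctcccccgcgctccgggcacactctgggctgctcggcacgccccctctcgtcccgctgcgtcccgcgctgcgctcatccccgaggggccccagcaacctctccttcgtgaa
Cdk2: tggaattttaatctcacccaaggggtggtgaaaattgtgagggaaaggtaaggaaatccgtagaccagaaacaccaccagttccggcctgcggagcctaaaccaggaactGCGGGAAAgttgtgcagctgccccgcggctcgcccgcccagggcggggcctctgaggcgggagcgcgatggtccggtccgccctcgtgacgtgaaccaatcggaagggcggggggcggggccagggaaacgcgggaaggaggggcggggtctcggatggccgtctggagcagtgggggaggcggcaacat
Ccne1: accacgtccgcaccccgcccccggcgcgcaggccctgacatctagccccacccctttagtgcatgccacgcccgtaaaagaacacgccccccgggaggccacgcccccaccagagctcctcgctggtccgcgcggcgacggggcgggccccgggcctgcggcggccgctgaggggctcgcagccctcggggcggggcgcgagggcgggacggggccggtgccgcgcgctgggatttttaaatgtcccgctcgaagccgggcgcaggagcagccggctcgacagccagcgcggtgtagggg

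Library depth was 33960216 to 45830216 reads in AThi, 54512285 to 61341946 in ATlo, and 44021141 and 45590508 in young, and ribosomal RNA genes took 27.1% to 36.1% of the reads. All 10 HSC markers examined (Procr, Hlf, Mecom, Slamf1 and others) were detected in every library. Their summed level was 125243 to 150598 normalized counts in AThi, 90212 to 113124 in ATlo, and 124978 to 127057 in young. The summed level of the multipotent progenitor markers Flt3, Cd34 and Cd48 was 2916 to 3619 in AThi, 3696 to 5181 in ATlo, and 5352 to 7020 in young. The summed level of 6 megakaryocyte and platelet markers was 3364 to 3957 in AThi, 4895 to 7552 in ATlo, and 2038 to 2530 in young. Granulocyte markers (6 of 7 listed) summed to 5390.01 to 6615 in AThi, 4079 to 6457 in ATlo, and 2611 to 2751 in young. The 2 of 6 listed T and NK cell markers in the table summed to 1599.6 to 3122 in AThi, 1252 to 1408 in ATlo, and 719.9 to 800.5 in young. The libraries tagged 12 stood apart. Summed B cell transcripts (4 of 7 listed markers were in the table) reached 23853 in AThi O12, 10098 in ATlo O12 and 10753 in young D12, against 636 to 989 in the other 5 libraries. Erythroid transcripts (5 of 6 listed) summed to 1179 in AThi O12, 2987 in ATlo O12 and 3122 in young D12, against 177 to 462 in the other 5 libraries. Monocyte transcripts (4 of 5 listed) summed to 923 in AThi O12, 695 in ATlo O12 and 587 in young D12, against 29.3 to 419.5 in the other 5 libraries. The part of these markers in the results was not tested, and results that depend on the libraries tagged 12 are given with and without them. Leaving them out leaves 1 young library, D11. In bulk RNA, fewer cells of a type and less RNA per cell cannot be told apart.

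HSCs of the AThi fraction carried less mRNA of both E-type cyclins and of both cyclin D kinases than HSCs of the ATlo fraction, while no D-type cyclin and not Cdk2 passed the test. In the authors' deposited DESeq2 table for AThi against ATlo, 4 of the 8 genes were called lower at an adjusted p below 0.05 (Ccne1, Ccne2, Cdk4 and Cdk6) and 0 higher. Of all genes tested there, 4.43% were called lower and 3.47% higher, 7.9% in either direction. At an unadjusted p below 0.05 the deposited test gave 5 members lower and 0 higher, where 8.6% of all genes were lower and 9.39% higher. The quasi-likelihood test of edgeR called 1 member lower, Ccne2, and 0 higher, where it called 1.11% of all genes lower and 0.301% higher. The AThi and ATlo libraries did not overlap for 6 members, 5 lower and 1 higher, where 11.6% and 10.7% of all genes tested did so. The median log2 fold change was -0.47 over the 8 members and 0.02 over all genes tested.

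**Figure D1:**
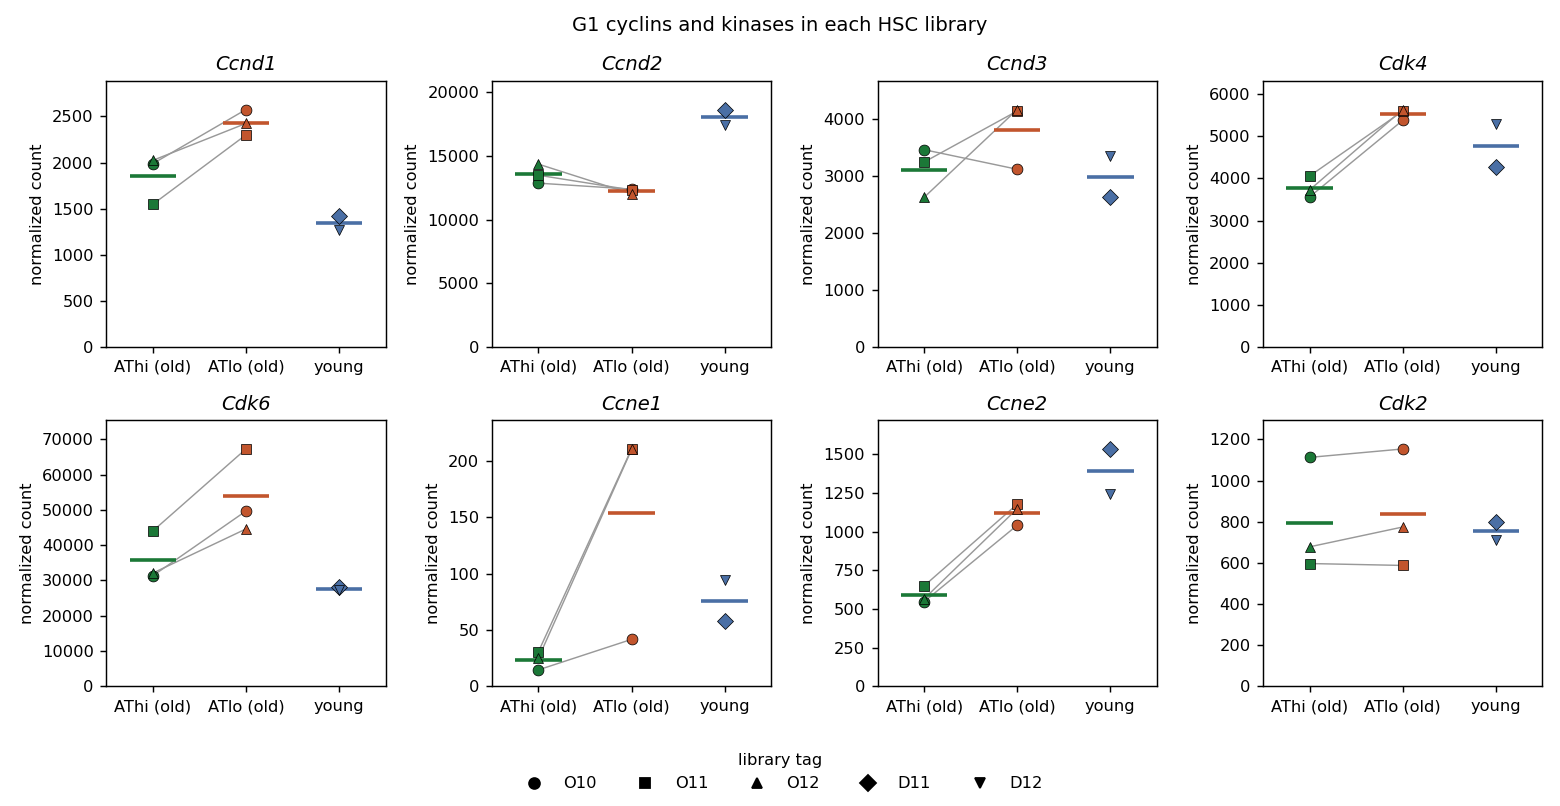
Normalized count of each of the 8 genes in each library (y axis, starting at 0), for AThi, ATlo and young HSCs, with lines joining old libraries of the same tag and a bar at each group mean. Ccne2 and Cdk4 lie lower in all 3 AThi libraries than in any ATlo library, Ccnd2 is highest in young, and for Cdk2 both libraries tagged O10 are the highest.

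Ccnd1 and Ccnd2, both D-type cyclins, were called in opposite directions in ATlo against young HSCs. Ccnd1 (chromosome 7, 144929931 to 144939925, minus strand, GRCm38) had 1988, 1547 and 2023 normalized counts in the AThi libraries O10, O11 and O12, 2575, 2299 and 2424 in the ATlo libraries in the same order, and 1415 and 1271 in young D11 and D12. The 3 groups did not overlap, with ATlo highest and young lowest. Per the authors' deposited table, Ccnd1 rose 1.81-fold in ATlo over young (log2 fold change 0.86 ± 0.18 SE, adjusted p = 1.3e-04). The values of 0.46 ± 0.18 for AThi over young (adjusted p = 0.12) and -0.39 ± 0.16 for AThi over ATlo (adjusted p = 0.109) did not pass in the same authors' deposited DESeq2 test. For the last of these the 95% interval of the fold was 0.614 to 0.944 before adjustment. The edgeR adjusted p for Ccnd1 in ATlo against young was 0.065. The DESeq2 call was lost without the libraries tagged 12, a fit that left 1 young library. Over 16 alternatives this log2 fold change ranged from 0.79 to 0.94. Without AThi O11, DESeq2 called Ccnd1 higher in AThi than in young, at 0.57 with an adjusted p of 0.024. Of the exon bases of Ccnd1, 23.4% overlap those of LTO1 on the opposite strand. For LTO1 the authors' deposited DESeq2 log2 fold change was 0.49 for AThi over young (adjusted p = 0.176). It was 0.44 for ATlo over young (adjusted p = 0.242) and 0.04 for AThi over ATlo (adjusted p = 0.944). No source used here gives the strand setting of the counting, so reads of such gene pairs cannot be told apart.

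Ccnd2 had the highest level per kilobase of exon of the D-type cyclins in every group. Ccnd2 (chromosome 6, 127125162 to 127152193, minus strand) had 12858, 13481 and 14351 normalized counts in AThi O10, O11 and O12, 12389, 12323 and 12016 in ATlo, and 18639 and 17408 in young. Every old library lay below both young libraries. The authors' deposited table gives a fall of Ccnd2 in AThi against young to a fold of 0.753 (log2 fold change -0.41 ± 0.10 SE, adjusted p = 0.0032) and in ATlo against young to a fold of 0.679 (-0.56 ± 0.10 SE, adjusted p = 9.5e-06). With edgeR the adjusted p was 0.091 for AThi and 0.034 for ATlo. The AThi call was lost in DESeq2 without young D11, at a log2 fold change of -0.36, and without the libraries tagged 12, at -0.50. Each of these fits left 1 young library. Between the old fractions the groups did not overlap, with AThi higher, but the difference of 0.15 ± 0.09 in the authors' deposited table did not pass (adjusted p = 0.397), with a 95% interval of the fold of 0.977 to 1.26. Of the exon bases of Ccnd2, 3.95% overlap Gm43126 on the opposite strand. The deposited DESeq2 test called Gm43126 lower in AThi than in young, at -0.53 (adjusted p = 0.039). Its value was -0.46 for ATlo over young (adjusted p = 0.102) and -0.07 for AThi over ATlo (adjusted p = 0.875).

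Ccnd3, the third D-type cyclin (chromosome 17, 47505051 to 47599691, plus strand), passed no test. It had 3454, 3237 and 2619 normalized counts in AThi O10, O11 and O12, 3111, 4131 and 4158 in ATlo, and 2619 and 3339 in young, and all 3 groups overlapped. The authors' deposited table gives log2 fold changes of -0.29 ± 0.18 for AThi over ATlo (adjusted p = 0.383), 0.06 ± 0.20 for AThi over young (adjusted p = 0.973) and 0.35 ± 0.20 for ATlo over young (adjusted p = 0.421). The 95% interval of the AThi to ATlo fold, 0.640 to 1.04, includes a fold of 1. Within mice the AThi to ATlo log2 ratio was 0.15 for tag O10, -0.35 for O11 and -0.67 for O12, so the direction differed between mice. Of the exon bases of Ccnd3, 4.11% overlap Bysl on the opposite strand. The deposited DESeq2 test called Bysl lower in AThi than in ATlo, at -0.96 (adjusted p = 3.7e-05), and in neither contrast against young.

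The makeup of the D-type cyclin counts within a library was also compared, a quantity that library scaling cannot change. Ccnd2 made up 70.3%, 73.8% and 75.6% of the summed D-type cyclin counts in AThi O10, O11 and O12, 68.5%, 65.7% and 64.6% in ATlo, and 82.2% and 79.1% in young. The 3 groups did not overlap, with young highest. The ratio of Ccnd1 to Ccnd2 counts averaged 0.137 ± 0.0203 in AThi, 0.199 ± 0.0109 in ATlo (SD, n = 3 each) and 0.0745 ± 0.00203 in young (SD, n = 2), and again no group overlapped another. The ratio of Ccnd3 to Ccnd2 averaged 0.230 ± 0.0439 in AThi, 0.311 ± 0.0520 in ATlo and 0.166 ± 0.0363 in young, with no overlap between ATlo and young only. In two-sided exact permutation tests over libraries the smallest p that 3 against 3 allows is 0.1, reached by Ccnd1 to Ccnd2 in AThi against ATlo, and the smallest that 3 against 2 allows is 0.2. None of the 12 ratio tests could therefore pass, and the lowest Benjamini-Hochberg adjusted p was 0.343. These are counts that depend on transcript length, so a ratio compares groups and not the amounts of 2 transcripts.

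**Figure D2:**
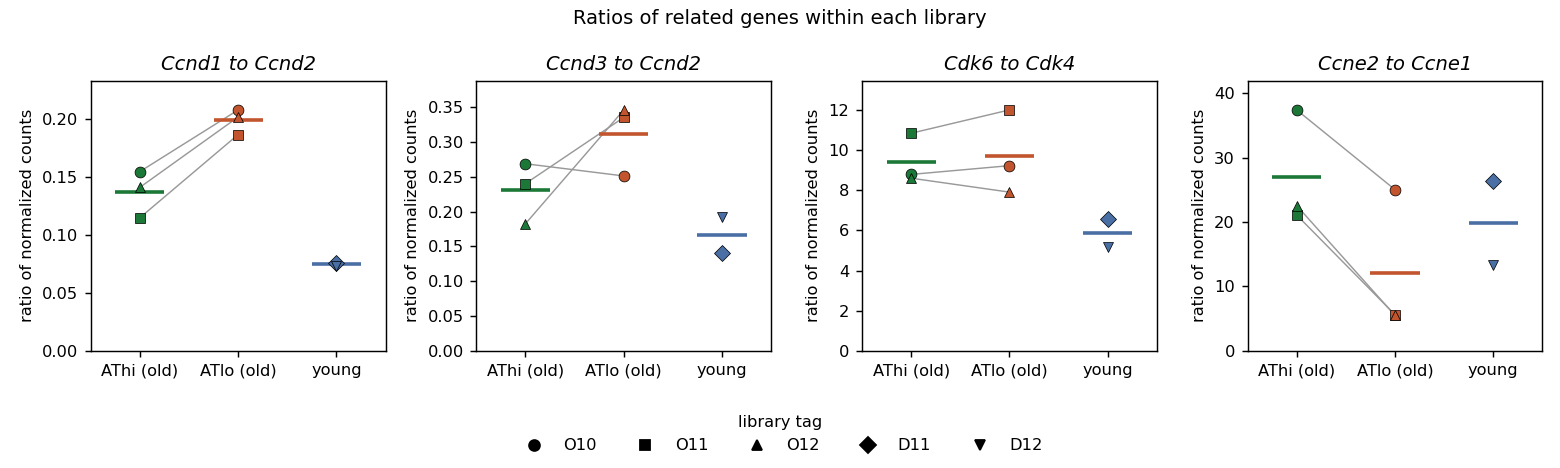
Ratio of normalized counts of related genes within each library (y axis, starting at 0), with old libraries of the same tag joined and a bar at each group mean. The Ccnd1 to Ccnd2 ratio separates all 3 groups (means 0.137 in AThi, 0.199 in ATlo and 0.0745 in young), and the Cdk6 to Cdk4 ratio lies higher in all 6 old libraries than in both young ones.

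Both kinases of cyclin D were lower in AThi than in ATlo HSCs. Cdk4 (chromosome 10, 127063534 to 127067920, plus strand) had 3563, 4059 and 3729 normalized counts in AThi O10, O11 and O12, 5380.5, 5599 and 5635 in ATlo, and 4274 and 5280.04 in young. All AThi libraries lay below both young libraries and all ATlo libraries above both. The authors' deposited table gives a fall of Cdk4 in AThi to a fold of 0.683 of ATlo (log2 fold change -0.55 ± 0.13 SE, adjusted p = 5.4e-04). Neither contrast of Cdk4 against young passed in the authors' deposited table, at -0.34 ± 0.14 for AThi (adjusted p = 0.182) and 0.21 ± 0.14 for ATlo (adjusted p = 0.526). Within mice the AThi to ATlo log2 ratio of Cdk4 was -0.59, -0.46 and -0.60. The call did not hold with edgeR (adjusted p = 0.062) or in DESeq2 without the libraries tagged 12. The log2 fold change there was -0.53, with 1 young library left in the fit. Of the exon bases of Cdk4, 19.7% overlap Tspan31 on the opposite strand, whose log2 fold change for AThi over ATlo was 0.14 in the authors' deposited table (adjusted p = 0.804). Against young, Tspan31 stood there at -0.11 in AThi (adjusted p = 0.942) and -0.26 in ATlo (adjusted p = 0.716).

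Cdk6 (chromosome 5, 3341485 to 3531008, plus strand) had 31345, 44042 and 32105 normalized counts in AThi O10, O11 and O12, 49688, 67274 and 44603 in ATlo, and 28086 and 27289 in young. The old fractions did not overlap, although AThi O11 lay just below ATlo O12, and within each mouse AThi was lower, with log2 ratios of -0.66, -0.61 and -0.47. In the authors' deposited table Cdk6 fell in AThi to a fold of 0.665 of ATlo (log2 fold change -0.59 ± 0.18 SE, adjusted p = 0.018) and rose 1.95-fold in ATlo over young (0.96 ± 0.20 SE, adjusted p = 1.4e-04). The value of 0.37 ± 0.20 for AThi over young did not pass in the authors' deposited table (adjusted p = 0.396), although all AThi libraries lay above both young ones. With the mouse as a block the AThi to ATlo adjusted p for Cdk6 was 4.5e-11 with DESeq2 and 0.017 with edgeR on the old libraries, against 0.18 with edgeR on the same libraries without the block. The edgeR fit of all 8 libraries gave an adjusted p of 0.15. The blocked DESeq2 fit rests on 3 pairs, and its standard error was 0.08, against 0.18 in the deposited test. So few pairs limit how far its p can be read. In unblocked DESeq2 fits the AThi to ATlo call was lost without AThi O10 (adjusted p = 0.119), AThi O12 (0.081) or ATlo O11 (0.182). The edgeR adjusted p for ATlo against young was 0.087. The ratio of Cdk6 to Cdk4 counts averaged 9.42 ± 1.24 in AThi, 9.72 ± 2.09 in ATlo (SD, n = 3 each) and 5.87 ± 0.992 in young (SD, n = 2). All 6 old libraries exceeded both young ones, at the smallest exact permutation p of 0.2 in each contrast, while the old fractions overlapped.

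Ccne1 and Ccne2, the E-type cyclins, gave the largest falls among the 8 genes between the old fractions. Ccne1 (chromosome 7, 38097984 to 38107534, minus strand) had 14.6, 30.8 and 25.1 normalized counts in AThi O10, O11 and O12, from 10, 28 and 24 reads. It had 41.6, 210.4 and 209.9 in ATlo, from 53, 265 and 270 reads, and 58.2 and 94.0 in young, from 56 and 89 reads. AThi lay below all other libraries, while ATlo O10 lay below both young libraries and the other ATlo libraries above both. The authors' deposited table gives a log2 fold change of -2.70 ± 0.71 SE for AThi over ATlo (adjusted p = 0.0044), a fold of 0.154 with a 95% interval of 0.0583 to 0.405. The authors' deposited values of -1.69 ± 0.80 for AThi over young (adjusted p = 0.285) and 1.02 ± 0.78 for ATlo over young (adjusted p = 0.624) did not pass. The call was lost without either of the high ATlo libraries. The DESeq2 adjusted p was 0.074 without ATlo O11 and 0.079 without ATlo O12. The call was also lost without the libraries tagged 12, at a log2 fold change of -2.47, with 1 young library left in the fit. With edgeR on all libraries the adjusted p was 0.10. The ratio of Ccne2 to Ccne1 counts averaged 27.0 ± 9.03 in AThi, 12.0 ± 11.2 in ATlo (SD, n = 3 each) and 19.8 ± 9.30 in young (SD, n = 2), and all groups overlapped.

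Ccne2 (chromosome 4, 11191351 to 11204779, plus strand) was called lower in AThi than in ATlo under 18 of 20 alternatives. These share libraries, and many are variants of the same test, so they are not separate checks. Without the libraries tagged 12 the DESeq2 log2 fold change was -0.89. It had 547, 649.6 and 566 normalized counts in AThi O10, O11 and O12, 1042, 1178 and 1149 in ATlo, and 1535 and 1244 in young. Every AThi library lay below every other library, and within mice the AThi to ATlo log2 ratio was -0.93, -0.86 and -1.02. Per the authors' deposited table, Ccne2 fell in AThi to a fold of 0.524 of ATlo (log2 fold change -0.93 ± 0.18 SE, adjusted p = 1.4e-05) and to 0.423 of young (-1.24 ± 0.20 SE, adjusted p = 6.5e-08). The edgeR adjusted p was 0.033 and 0.013 for these contrasts. The value of -0.31 ± 0.20 for ATlo over young did not pass in the authors' deposited table (adjusted p = 0.510), with a 95% interval of the fold of 0.619 to 1.06. Of the exon bases of Ccne2, 17.4% overlap Ints8 on the opposite strand, at a log2 fold change of 0.26 for AThi over ATlo in the authors' deposited table (adjusted p = 0.742). Against young, Ints8 stood there at -0.60 in AThi (adjusted p = 0.473) and -0.87 in ATlo (adjusted p = 0.166). In edgeR fits of the old libraries alone, Ccne2 was not called between the fractions with the mouse as a block (adjusted p = 0.064) or without it (adjusted p = 0.052).

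Cdk2, the partner kinase of the E-type cyclins (chromosome 10, 128697939 to 128705031, minus strand), passed no test. It had 1112, 597 and 678 normalized counts in AThi O10, O11 and O12, 1153, 587 and 774 in ATlo, and 798 and 709.6 in young. Both libraries tagged O10 were high, and the AThi to ATlo log2 ratio within mice was -0.05, 0.02 and -0.19. The authors' deposited table gives -0.08 ± 0.31 for AThi over ATlo (adjusted p = 0.944), 0.08 ± 0.35 for AThi over young (adjusted p = 0.979) and 0.15 ± 0.35 for ATlo over young (adjusted p = 0.928). The 95% interval of the AThi to ATlo fold was 0.619 to 1.45, so a change of the size seen for Cdk4 or Cdk6 lies inside it.

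**Figure D3:**
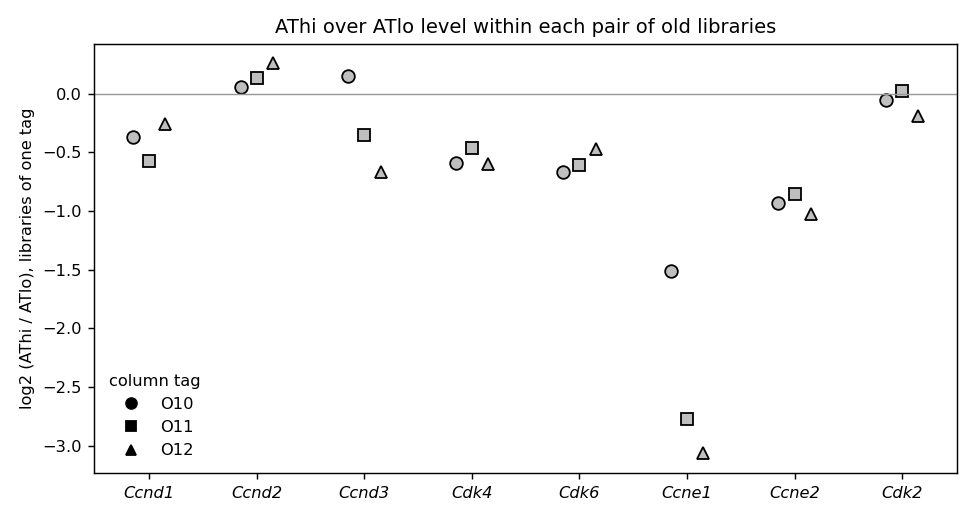
Log2 ratio of the AThi to the ATlo normalized count for old libraries of the same tag (y axis), 1 point for each of 3 tags and 8 genes. Ccne2, Cdk4, Cdk6, Ccne1 and Ccnd1 lie below 0 for all 3 tags, Ccnd2 lies above 0 for all 3, and Ccnd3 and Cdk2 differ in sign between tags.

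Against young HSCs, Ccnd2 was called lower in both old fractions. In the authors' deposited table for AThi against young, 2 members were called lower (Ccne2 and Ccnd2) and 0 higher. Of all genes tested there, 1.91% were called lower and 3.13% higher, 5.04% in either direction. The deposited test gave 4 members lower and 1 higher at an unadjusted p below 0.05, where 6.19% of all genes were lower and 7.62% higher. With edgeR 1 member was called lower, Ccne2, and 0 higher, where 0.362% of all genes were called lower and 0.844% higher. The libraries did not overlap for 4 members lower and 2 higher, against 14.2% and 13.9% of all genes. The median log2 fold change was -0.14 over the members and 0.00032 over all genes. In the authors' deposited table for ATlo against young, 1 member was called lower (Ccnd2) and 2 higher (Ccnd1 and Cdk6). Of all genes tested there, 1.98% were called lower and 2.37% higher, 4.34% in either direction. At an unadjusted p below 0.05 the deposited test gave the same counts, 1 lower and 2 higher, where 7.06% of all genes were lower and 7.23% higher. With edgeR 1 member was called lower, Ccnd2, and 0 higher, where 0.186% of all genes were called lower and 0.467% higher. The libraries did not overlap for 2 members lower and 3 higher, against 15.2% and 16.1% of all genes. The median log2 fold change was 0.28 over the members and 0.01 over all genes. Both contrasts share the young libraries, and the difference between them is the AThi against ATlo contrast itself.

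**Figure D4:**
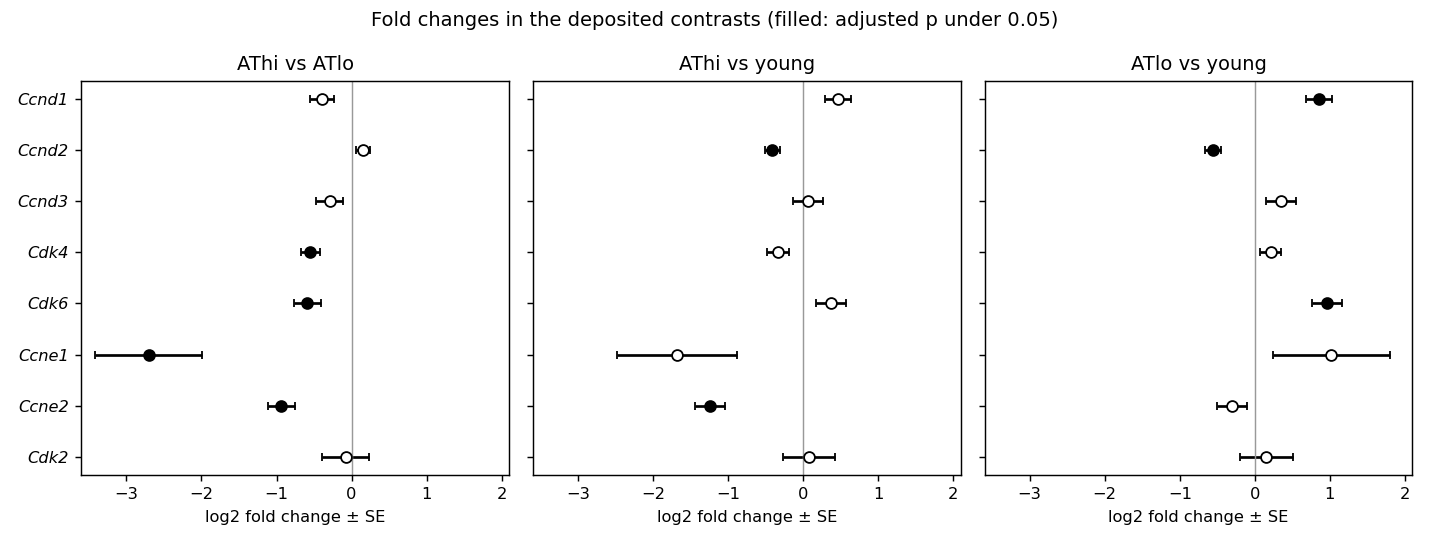
Log2 fold change with its standard error (x axis) for the 8 genes in each deposited contrast, filled where the adjusted p was below 0.05. Between the old fractions Ccne1 (-2.70), Ccne2 (-0.93), Cdk6 (-0.59) and Cdk4 (-0.55) are filled, and against young Ccnd2 is filled for both fractions.

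Levels can be compared between members only per length. Length here was all annotated exon bases of a gene, joined over its transcripts. The transcripts expressed can be shorter, so the order of members can depend on this choice. Per kilobase of exon (GENCODE M21), the mean level in AThi HSCs was 2561 normalized counts per kilobase for Cdk6, 1442 for Ccnd2, 1164 for Cdk4, 393 for Ccnd1, 354 for Ccnd3, 168 for Ccne2, 128 for Cdk2 and 8.84 for Ccne1. In ATlo the same level was 3849.8 for Cdk6, 1705 for Cdk4, 1301 for Ccnd2, 517 for Ccnd1, 433 for Ccnd3, 321 for Ccne2, 135 for Cdk2 and 57.8 for Ccne1. In young it was 1979 for Cdk6, 1916 for Ccnd2, 1470.3 for Cdk4, 398 for Ccne2, 339 for Ccnd3, 285 for Ccnd1, 121 for Cdk2 and 28.6 for Ccne1. Cdk6 was the highest member in every group mean and Ccne1 the lowest. Neighbours whose libraries overlapped were Ccnd1 with Ccnd3 and Ccne2 with Cdk2 in AThi, and Cdk6 with Ccnd2, Ccne2 with Ccnd3, and Ccnd3 with Ccnd1 in young. In ATlo, Cdk4 stood above Ccnd2 in all 3 libraries, while in AThi Ccnd2 stood above Cdk4 in all 3.

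Genes that act on these complexes were read from lists by role, chosen with earlier results of these data known. Of all genes tested in AThi against ATlo, the deposited test called 4.43% lower and 3.47% higher. With edgeR these shares were 1.11% and 0.301%. They stand beside the AThi against ATlo counts of every list below. Among E2F and DP factors, the transcription factors that RB restrains, the authors' deposited table called 5 of 10 lower in AThi than in ATlo and 0 higher, and edgeR called 3 lower. Examples in the authors' deposited table were E2f1, an activator E2F, at -2.16 ± 0.23 (adjusted p = 1.3e-17, edgeR 0.0066), Tfdp1, the common DP partner, at -0.93 ± 0.12 (adjusted p = 7.1e-13, edgeR 0.0074) and E2f8, a repressor E2F, at -1.38 ± 0.23 (adjusted p = 2.1e-07, edgeR 0.022). All 5 later cyclins and kinases in the table were called lower in the authors' deposited table, and edgeR called 3. Among them, in the authors' deposited table, Ccna2, the S-phase cyclin, had a log2 fold change of -1.43 ± 0.17, Cdk1, the mitotic kinase, -1.48 ± 0.21, and Ccnb1, a mitotic cyclin, -1.18 ± 0.24. All 6 proliferation genes were called lower by both tests. Mki67, a proliferation marker, had 16345 ± 3511 normalized counts in AThi, 43599 ± 3799 in ATlo (SD, n = 3 each) and 19988 ± 4474 in young (SD, n = 2). The members' falls therefore stand beside lower proliferation markers, and the part of the share of cycling cells in them was not tested.

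Of 9 genes of cyclin turnover, the authors' deposited table called 2 lower in AThi than in ATlo, Skp2, the F-box protein of the ligase for CDKN1B, at -0.66 ± 0.18 (adjusted p = 0.0056, edgeR 0.10) and its cofactor Cks1b at -1.34 ± 0.21 (adjusted p = 2.4e-08, edgeR 0.018). Of 5 CDC25 phosphatases and WEE1 kinases, which remove and place the inhibitory phosphate on CDKs, 2 were called lower in the authors' deposited table, Cdc25a at -0.87 ± 0.25 (adjusted p = 0.012) and Cdc25c at -1.02 ± 0.31 (adjusted p = 0.020), and edgeR called 0 of the 5. Of 3 pocket proteins, Rbl1 was called lower at -0.61 ± 0.19 (adjusted p = 0.025) and Rbl2, linked to quiescence, higher at 0.38 ± 0.13 (adjusted p = 0.039) in the authors' deposited table, neither by edgeR. None of the 3 genes of the CDK-activating kinase (Cdk7, Ccnh and Mnat1) and none of 10 other cyclins and kinases was called by the deposited DESeq2 test or by edgeR, also at 0 for an unadjusted deposited p below 0.05. The median log2 fold change was -0.15 for the CDK-activating kinase and -0.01 for the other cyclins and kinases, against 0.02 over all genes.

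Among the CDK inhibitors, calls were made against young and none between the old fractions. Of 5 CDK inhibitors in the table, 0 were called between AThi and ATlo by the deposited DESeq2 test or edgeR. At an unadjusted deposited p below 0.05, 2 were higher, where 9.39% of all genes were. These were Cdkn1b (p27), at 0.58 ± 0.24 with an adjusted p of 0.121, and Cdkn1c (p57), at 0.52 ± 0.20 with an adjusted p of 0.092, both in the authors' deposited table. Cdkn1a (p21) had 345 ± 28.4 normalized counts in AThi, 437 ± 150.4 in ATlo (SD, n = 3 each) and 65.4 ± 2.94 in young (SD, n = 2). In the authors' deposited table Cdkn1a rose over young by 2.40 ± 0.38 on the log2 scale in AThi (adjusted p = 4.5e-08, edgeR 0.017) and by 2.74 ± 0.38 in ATlo (adjusted p = 1.9e-10, edgeR 0.016). Cdkn2c (p18), an inhibitor of CDK4 and CDK6, rose in ATlo over young by 1.44 ± 0.36 in the authors' deposited table (adjusted p = 0.0040, edgeR 0.17).

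**Figure D5:**
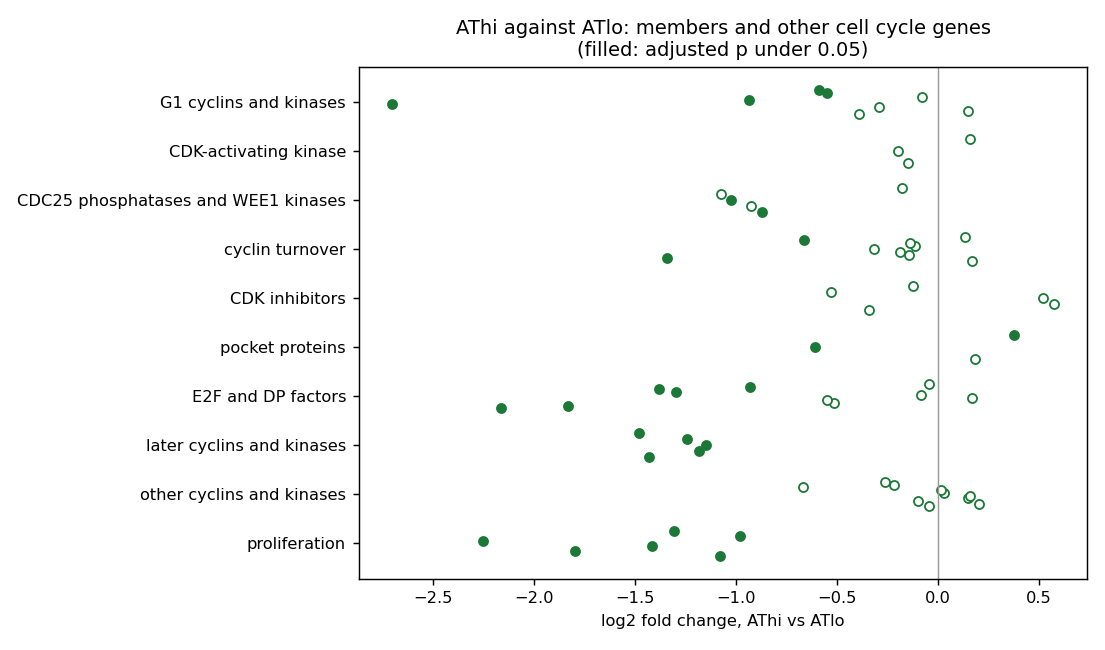
Log2 fold change for AThi over ATlo (x axis) of each gene in the members' list and in 9 lists of other cell cycle genes, filled where the deposited adjusted p was below 0.05. All later cyclins and proliferation genes are filled and lie below 0, and no gene of the CDK-activating kinase, the CDK inhibitors or the other cyclins and kinases is filled.

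The genes whose profile over the 8 libraries was most like a member's were found by the root mean square difference of centred log2 counts, among genes with a mean of at least 100 normalized counts. Predicted, clone and pseudogene names were left out of the search. For Ccne1 these were E2f2 (0.43) and Uhrf1 (0.61), against a spread of Ccne1 itself of 1.29. For Ccne2 they were Cenpo (0.16) and Mthfd1l (0.17), against 0.54. For Cdk6 they were Cep43 (0.14) and Zfp438 (0.16), against 0.43, and for Cdk4 Anapc5 (0.064) and Tmem179b (0.069), against 0.26. For Ccnd1 they were Acot13 (0.12) and Klhl23 (0.14), against 0.35, and for Ccnd2 Mkln1 (0.080) and Mllt10 (0.082), against 0.22.

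The authors also deposited a table of 726 upstream regulators of the AThi against ATlo differences, with an activation score and a p of overlap between a regulator's targets and the changed genes. In the authors' deposited table CCND1 is given as Inhibited, with a score of -4.28, an overlap p of 1.21e-31 and 53 targets, although the log2 fold change of Ccnd1 itself, -0.393 there, did not pass the deposited test. CDK4 has an overlap p of 5.44e-23 over 31 targets and no score in the authors' deposited table. CCNE1 has a score of -1.706 with an overlap p of 9.27e-09 over 9 targets, and CDK2 a score of -0.816, in the authors' deposited table, both with no state. CCND3 has an overlap p of 0.00715 there and no score, and CDK4/6 a score of -0.6 with no state. RB1 is given there as Activated (score 3.957) and E2F1 as Inhibited (score -3.991). E2F2 (-3.088) and E2F3 (-3.625) are also given as Inhibited. E2F6 is given as Activated (3.023), and E2F4 (1.709) and E2F8 (0.943) have positive scores with no state. CDKN1A is given as Activated (4.541), although the log2 fold change of Cdkn1a there is -0.339. Among the members, Ccne1 is listed as a target of 152 of the 726 regulators and the other 7 members of 0. Listed targets found in the contrast table reached a deposited DESeq2 adjusted p of 0.377, so not all of them were called. Their absolute log2 fold change was 0.749 or more. Ccnd1, Ccnd2, Ccnd3, Cdk2, Cdk4 and Cdk6 lay below that size, so their absence says nothing on their regulators. Ccne2, at -0.93 for AThi over ATlo in the deposited DESeq2 test, lay past that size and was still not listed. The reason was not tested. These scores come from the same contrast as the fold changes and are no independent measurement.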

How the data were processed

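Bulk RNA sequencing covered 3 AThi, 3 ATlo and 2 young libraries, made together from about 10000 HSCs each (RNA integrity number over 9.0, paired 50-base ends), per the labels' protocols. RNA was handled on 2 sort days, and no source used here assigns libraries to them. The submitters' processing notes name FastQC, MultiQC, STAR, featureCounts, DESeq2 and build GRCm38, without versions, annotation or strand setting. For each of 3 contrasts the authors deposited the log2 fold change and its standard error, the Wald score, the p-value before and after adjustment, and a normalized count signal per library. They also deposited a table of upstream regulators with an activation score and an overlap p-value.

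Each signal column is reads over a constant: when divided by what 1 read is worth, 100% of values were whole to within 0.01. Library totals are these recovered counts and carry counting error only. Replicate libraries differed beyond sampling noise (chi-square per degree of freedom of at least 52.9). The main test is the Wald test of DESeq2 as deposited by the authors, adjusted by Benjamini-Hochberg over all genes (73 had no p) and called at an adjusted p below 0.05. A refit with DESeq2 1.42.0 on recovered reads of all 8 libraries, with no mouse term, made the same 1414, 961 and 811 calls. The 95% intervals of folds are normal intervals from the deposited standard error, before adjustment. Alternatives were the quasi-likelihood test of edgeR 4.0.16 on recovered reads and limma 3.58.1 (R 4.3.3). Python 3.11.15 with pandas 2.3.3, numpy 2.4.6, matplotlib 3.10.9 and scipy 1.17.1 served other steps. The edgeR and DESeq2 fits and the search for similar profiles, on log2 counts with 1 added, were tested on simulated data.

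Column tags name groups but are not the labels' replicate numbers. The labels state paired AThi and ATlo replicates. Deviations from group means correlated at 0.209, 0.164 and 0.373 between libraries of tag O10, O11 and O12 over 13611 genes. The value was 0.030 at most between different tags, which is partly forced because deviations cancel out within a group. On this basis tags were taken as mice, and values within mice or with the mouse as a block rest on that reading. A shared mouse and shared handling cannot be told apart here. Gene positions, exon lengths and overlaps come from GENCODE M21 (GRCm38) and promoters from RefSeq. All 8 members are described whatever their values. The rule for other genes was up to 3 per list, by adjusted p among genes called in AThi against ATlo. It also took any list gene whose count stood at 5 or fewer, and the 2 genes nearest each member called in any contrast. Mki67 was added as a check of proliferation, and the CDK-activating kinase was named as a list. The CDK inhibitors were named outside this rule, after their values had been seen. The members and lists were chosen with earlier results of these data known.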

Additional observations from a re-analysis of the deposited data

Results flagged for a closer look

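Ccne1 and Cdk4 drew attention because the old fractions differed from young in opposite directions while differing from each other past the threshold. For Ccne1 the log2 fold change against young was -1.69 in AThi and 1.02 in ATlo, and the difference between them, tested by the AThi against ATlo contrast of the authors' deposited DESeq2 table, was -2.70 (adjusted p = 0.0044, edgeR 0.10). For Cdk4 the values against young were -0.34 in AThi and 0.21 in ATlo, and the difference in the authors' deposited DESeq2 table was -0.55 (adjusted p = 5.4e-04, edgeR 0.062). All AThi libraries lay below and all ATlo libraries above both young libraries for Cdk4, whereas for Ccne1 the ATlo library O10 lay below young. Neither gene passed the test in either contrast against young.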

How the results depend on the processing

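The deposited calls were kept by the DESeq2 refits on recovered reads, with TMM factors, of each pair of groups alone, and without mitochondrial genes and Rn18s. The numbers of members called moved under other tests. For AThi against ATlo, 4 members were called by the deposited test, 1 by edgeR with TMM, with DESeq2 size factors or with no filter, 1, 2 and 2 by limma with 0.5, 1 and 8 added, and 2 by DESeq2 without the libraries tagged 12. Leaving out 1 library gave 2 to 4 calls, with 2 without ATlo O11. Against young, AThi had 2 members called, 1 with any edgeR version, any limma version or without the libraries tagged 12, and 1 to 3 with 1 library left out (1 without young D11). ATlo had 3 called, 1 with any edgeR version and with limma at 0.5 or 1 added, and 3 with each library left out in turn. Leaving out a young library or the libraries tagged 12 leaves 1 young library, assumed to vary like the other groups.

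Pairing by mouse (a replicate block) gave 4 calls with DESeq2, the same 4 genes, and 1 with edgeR, Cdk6. An edgeR fit of the old libraries with no block, chosen after seeing the data, called 0, with 5 of 8 members lower and 0 higher at an unadjusted p below 0.05, where 7.9% of all genes were lower and 7.15% higher. Under the block the mean log2 ratio difference was -0.03 for Cdk6 to Cdk4 and -0.55 for Ccnd1 to Ccnd2. With every pair complete, these means equal the unblocked differences by arithmetic, so they are no check of the ratios.

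Directions turned only for values that had not passed a test, when 1 library was left out. The log2 fold change of Cdk2 then ranged from -0.39 to 0.22 for AThi over ATlo, from -0.25 to 0.24 for AThi over young and from -0.14 to 0.36 for ATlo over young. It reached 0.09, 0.03 and 0.22 for AThi over ATlo without AThi O11, AThi O12 and ATlo O10, -0.25 and -0.0040 for AThi over young without AThi O10 and young D12, and -0.14 for ATlo over young without ATlo O10. For Ccnd3, AThi over young ranged from -0.10 (without young D11) to 0.25, and was -0.03 without AThi O10. The log2 Cdk6 to Cdk4 ratio for AThi over ATlo ranged from -0.17 to 0.13, with 0.01, 0.03 and 0.13 without AThi O10, AThi O12 and ATlo O11. That of Ccne2 to Ccne1 for AThi over young ranged from -0.017 without young D12 to 0.98. The cause was not tested. Depth limits Ccne1 most, with 10 to 28 reads per AThi library.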
